A study of Mus musculus with 6 samples.

Results

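Malat1, Neat1, Meg3, H19, Kcnq1ot1, Mir17hg, Pvt1, Dleu2 and Gm10451 are 9 genes of long noncoding RNAs (lncRNAs), and they were followed here by symbol in an RNA-sequencing table that lists 41255 genes. All 9 were listed and 8 had at least 1 read in some library. The cells were Ba/F3, a mouse lymphoid line that grows only with interleukin-3. All 6 cultures carried a retroviral human RPL10 cDNA, encoding a protein of the large ribosomal subunit, and a short hairpin RNA against the mouse Rpl10 gene. The cDNA was wild type (WT) in clones 28, 29 and 36 and carried the leukemia-associated R98S mutation in clones 11, 13 and 35. Each culture was monoclonal, grown from a single-cell colony, so each genotype rests on 3 clones and on no bulk population. Every culture received cycloheximide, which arrests elongating ribosomes, at 100 µg/ml for 5 min before lysis. Poly(A)-selected, strand-specific libraries were sequenced on an Illumina HiSeq instrument, 1 per clone. Gm10451 was selected on its normalized counts in an earlier look at the same table, where they differed between R98S and WT, so its values are described without a test. The other 8 were chosen by name.

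LncRNAs are transcripts without a long open reading frame, and many of them act in the nucleus. Malat1 collects in nuclear speckles, where splicing factors are stored, and Neat1 is the scaffold of paraspeckles, bodies built around RNA-binding proteins. Meg3, H19 and Kcnq1ot1 are transcribed from a single parental chromosome in imprinted domains. Mir17hg and Dleu2 are the host transcripts of microRNA (miRNA) clusters studied in lymphoid cells, namely the growth-promoting miR-17-92 cluster and miR-15a with miR-16, which restrain Bcl2 and cyclins. Pvt1 lies beside the oncogene Myc. Gm10451 carries only a predicted-gene symbol, and no function is given for it here.

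Mir17hg and Dleu2 are best known through the miRNAs cut from them, so the mature sequences of the main arms are shown first, from RefSeq (GRCm38.p6), 5′ to 3′. Capitals mark the seed, bases 2 to 8, which pairs with target mRNAs. The Mir17hg cluster lies on chromosome 14, plus strand, with miR-17-5p at 115043684 to 115043706 and miR-92a-3p at 115044476 to 115044496.
miR-17-5p: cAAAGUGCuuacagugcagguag
miR-20a-5p: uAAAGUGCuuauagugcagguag
miR-18a-5p: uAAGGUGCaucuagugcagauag
miR-19a-3p: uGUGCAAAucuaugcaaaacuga
miR-19b-3p: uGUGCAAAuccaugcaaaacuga
miR-92a-3p: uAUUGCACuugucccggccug
Dleu2 hosts a pair of miRNAs on the minus strand of chromosome 14, miR-15a-5p at 61632075 to 61632096 and miR-16-5p at 61631936 to 61631957.
miR-15a-5p: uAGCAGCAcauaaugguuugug
miR-16-5p: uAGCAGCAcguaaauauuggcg
These 8 miRNAs fell into 5 seed groups. miR-17-5p shared its seed with miR-20a-5p, miR-19a-3p with miR-19b-3p, and miR-15a-5p with miR-16-5p, while miR-18a-5p and miR-92a-3p each had a seed of their own.

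Gm10451 had the most reads of the 9 genes, so its start region is printed as well. The 300 bases below lie at chr12:76444247-76444546, plus strand (RefSeq, GRCm38.p6). Lower case marks the 250 bases before the transcription start and capitals the first 50 transcribed bases.
Gm10451 start region: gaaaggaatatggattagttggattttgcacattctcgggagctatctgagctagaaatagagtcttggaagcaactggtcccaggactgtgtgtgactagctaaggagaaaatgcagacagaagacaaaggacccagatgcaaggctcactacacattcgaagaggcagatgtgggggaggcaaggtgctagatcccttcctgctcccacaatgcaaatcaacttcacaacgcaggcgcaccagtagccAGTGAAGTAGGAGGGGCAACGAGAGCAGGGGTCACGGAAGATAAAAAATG
This window held 6 CpG dinucleotides and 49.3% G and C, against medians of 7.0 and 52.7% over 32851 mouse start regions of the same length, of which 47.9% had as few CpGs or fewer. The letters TATAAA, searched on both strands, were not in it, and 13.6% of all start regions held them.

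The libraries held between 21786776 and 24204991 reads, with 18890 to 19958 genes above 0 per library. The deposited values are read counts divided by a size factor per library (normalized counts), and 3 reads, taken as the floor, correspond to 2.78 to 3.22 normalized counts. Genes with a mean of at least 10 normalized counts were tested, 11550 in all, with limma on log2(normalized count + 1) and a Benjamini-Hochberg adjusted p under 0.1 as the threshold. At this threshold 23.9% of the tested genes were called, 10.7% as higher and 13.1% as lower in R98S, and WT and R98S libraries were fully separated, without overlap, in 37.3%. The 4 markers of an interleukin-3 dependent line (Il3ra, Csf2rb, Csf2rb2, Ptprc) were all expressed, whereas Pax5, Vpreb1, Igll1 and Rag1 were at or under the floor in every library, so of the 8 B-cell precursor markers only Cd79a and Cd79b were tested and Ebf1 stayed under the filter. The summed normalized counts of the interleukin-3 list were 98117.7 to 118045.3 in WT and 134077.3 to 158695.2 in R98S. Those of the B-cell precursor list were 1288.0 to 1399.8 and 1637.2 to 1956.5, so both sums were higher in every R98S library. The T-cell list summed to 14.0 to 65.0 in WT and 46.9 to 92.9 in R98S. The fibroblast list summed to 12.3 to 24.7 and 10.2 to 21.4, and the erythroid list to 11.8 to 73.1 and 2.78 to 12.2. The part of any of these lists in any result was not tested. Rpl10, the knocked-down gene, ranged from 1900.4 to 3156.2 in WT and from 1883.0 to 3027.6 in R98S, and reads of the human cDNA that align to it would be included. These are bulk samples, so fewer cells of a type and less RNA per cell cannot be told apart.

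LncRNA genes as a class stood low in this table. Of 2382 rows that RefSeq calls lncRNA, 37.8% had a read and 92 (3.86%) reached the mean of 10, against 88.5% and 52.3% of 19634 protein-coding rows. The median lncRNA row was at 0 and the median protein-coding row at 19.7 normalized counts. Together the lncRNA rows took 0.0291% to 0.03153% of a WT library and 0.02845% to 0.03144% of an R98S library. These values are not divided by gene length, so they place rows in the table and do not order the genes. Of the tested lncRNA rows, 23 of 92 (25.0%) were called, next to 24.7% of the protein-coding rows. The 92 include Gm10451, which was selected on its difference and reached the mean of 10 only through its R98S values.

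**Figure D1:**
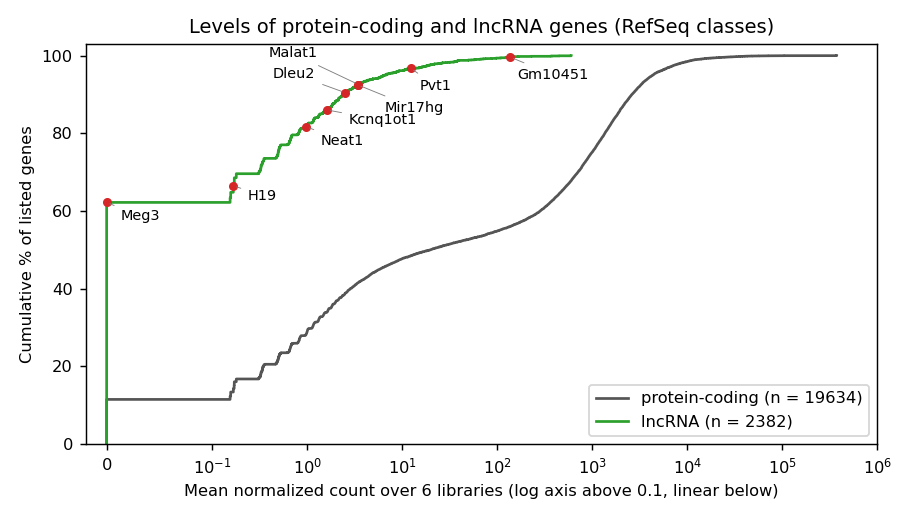
Cumulative share of RefSeq protein-coding (grey) and lncRNA (green) genes by mean normalized count over the 6 libraries, with the 9 named lncRNAs as red points. The lncRNA curve starts above 60% at 0, and Gm10451, at 0 in WT, and Pvt1 are the members furthest to the right on this scale, which pools WT and R98S and is not divided by length.

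Low values were also listed for several noncoding RNAs that all cells use. This set was picked after its values were seen. The mitochondrial ribosomal RNAs had at most 2 reads (mt-Rnr1) and 5 reads (mt-Rnr2) in any library, Snhg1, a host of small nucleolar RNAs, had at most 5, and Snhg3 was listed at 0 throughout. Gas5, another such host, stood at 11.8 to 15.4 normalized counts in WT and 17.4 to 32.8 in R98S. Other hosts of this kind stood higher, such as Snhg6 at 51.0 to 65.5 in WT and 76.5 to 113 in R98S. A value near 0 in this table is therefore given only as listed, and it is not read as absence of the transcript. Reads matching ribosomal or transfer RNA had been removed before alignment and the libraries were poly(A)-selected, and the part of these steps in the low values was not tested. Histone genes and other RNAs without a tail (75 rows) took 0.00435% to 0.00515% of the values in WT and 0.0101% to 0.0137% in R98S.

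Malat1 and Neat1, the nuclear-body RNAs, lie beside each other on the minus strand of chromosome 19, Malat1 at 5795690 to 5802672 and Neat1 at 5824708 to 5845478 (GRCm38). Malat1, abundant in most mouse tissues, had 5, 1 and 6 reads in WT, clones in the order given above, and 2, 2 and 5 reads in R98S. The groups overlapped, and the sums of 12 and 9 reads had exact Poisson 95% intervals of 6.20 to 21.0 and 4.12 to 17.1 reads, which cover counting error only, as do all intervals of this kind here. Neat1 had 0, 2 and 0 reads in WT and 1, 0 and 3 in R98S, all at or under the floor. No difference in either RNA was detectable with so few reads.

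The imprinted RNAs had few or no reads. Meg3, from the Dlk1-Dio3 domain on chromosome 12 (109541001 to 109571726, plus strand), was listed at 0 in all 6 libraries, and the interval for 0 reads over 3 libraries reaches 3.69 reads. H19, next to Igf2 on chromosome 7 (142575529 to 142578143, minus strand), had a single read, in WT clone 36. Kcnq1ot1, the antisense RNA inside Kcnq1 (chromosome 7, 143203458 to 143296549, minus strand), had 2, 0 and 3 reads in WT and 1, 0 and 4 in R98S, which sum to 5 in both groups (1.62 to 11.7). Whether strand was used in counting is not given in the sources used here, and 121 exonic bases of Kcnq1ot1 lie opposite exons of Kcnq1, so reads there could belong to either gene. Some protein-coding genes of these domains had few reads as well: Igf2, which promotes fetal growth, had 2 and 3 reads summed over the WT and R98S libraries, Cdkn1c, a cell-cycle inhibitor, 7 and 4, and Dlk1 4 and 9. Of 16 domain genes listed, 4 were well above the floor and tested (Cd81, Tspan32, Tssc4 and Nap1l4, with means of 458 to 4535.6 normalized counts) and 2 of them, Tssc4 and Nap1l4, were higher in R98S (10.7% of all tested genes).

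The miRNA hosts held a few reads each. Mir17hg (chromosome 14, 115042879 to 115046727, plus strand) had 2, 5 and 3 reads in WT and 1, 7 and 2 in R98S, 10 in either group (4.80 to 18.4). R98S clone 13 was highest and R98S clone 11 lowest, so the spread within R98S covered all WT values. Dleu2 (chromosome 14, 61602839 to 61682373, minus strand) had 5, 2 and 3 reads in WT and 3, 1 and 1 in R98S. The sums were 10 (4.80 to 18.4) and 5 (1.62 to 11.7), with overlapping libraries. In a limma fit without an expression filter, where all genes with a read were adjusted together, the log2 fold change of Dleu2 was -0.79 (adjusted p = 0.4804) and that of Mir17hg -0.26 (adjusted p = 0.8497). Trim13 and Kcnrg overlap the span of Dleu2 on the opposite strand, without shared exonic bases. The 8 rows for the miRNA precursors within Mir17hg and Dleu2 were listed at 0 in every library.

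Pvt1, a host of several small RNAs downstream of Myc on chromosome 15 (62037986 to 62378096, plus strand), was the only gene besides Gm10451 that passed the filter. WT clones 28, 29 and 36 had 7, 9 and 16 reads, whereas R98S clones 11, 13 and 35 had 17, 16 and 9, or 7.17, 9.67 and 16.0 against 15.9, 16.3 and 8.33 normalized counts. WT clone 36 lay with the higher R98S clones and R98S clone 35 with the lower WT clones. The log2 fold change was 0.30 (SE 0.46; limma, adjusted p = 0.6987), not past the threshold, and the sums of 32 reads (21.9 to 45.2) and 42 reads (30.3 to 56.8) had overlapping intervals. Gm10451 aside, 1 of 8 members was thus tested and 0 were called, beside 23.9% of all tested genes. Myom1 (root mean square difference 0.11) and Cdkn1a (0.13) had the log2 profiles most like that of Pvt1 over the 6 libraries, centred on their means. Cdkn1a, the cell-cycle inhibitor p21, stood at 5260.4, 6686.4 and 9333.1 normalized counts in WT and 8565.0, 10135.8 and 5986.7 in R98S, in the same order of clones as Pvt1.

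Gm10451 (chromosome 12, 76444497 to 76451336, plus strand) was at 0 in all WT clones and well above the floor in all R98S clones. WT clones 28, 29 and 36 had 0 reads each, and R98S clones 11, 13 and 35 had 275, 244 and 337 reads, or 258, 249 and 312 normalized counts. The groups did not overlap. The lowest R98S value was at least 77.2-fold higher than 3 reads in the WT library where these weigh most. Summed over R98S, 856 reads (800 to 915) stood against 0 reads in WT (up to 3.69). GENCODE annotates 3 transcripts of this gene, spanning 2494 exonic bases that no other annotated gene shares.

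**Figure D2:**
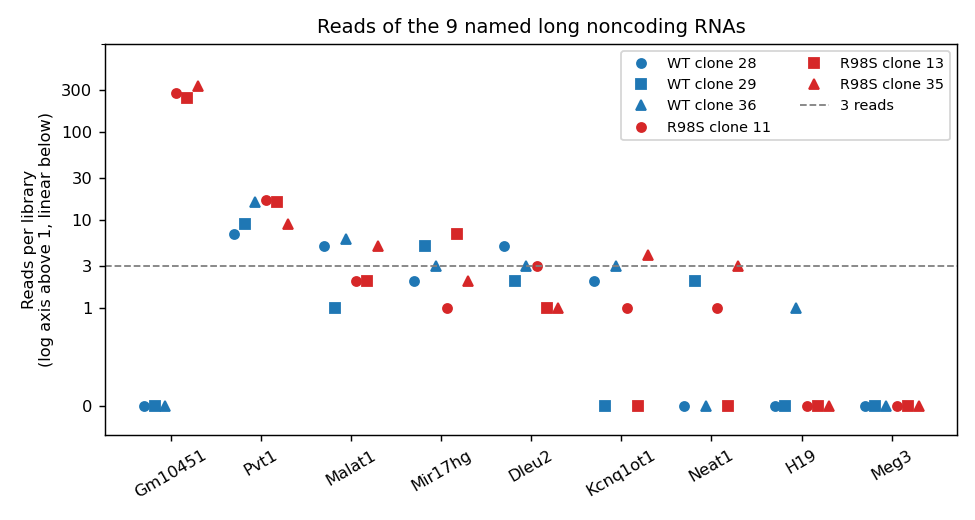
Reads per library of the 9 named lncRNAs, with WT clones in blue, R98S clones in red and a dashed line at 3 reads (log axis above 1, linear below). Gm10451 separates into 0 reads in WT and 244 to 337 in R98S, and the colours mix for the other genes.

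Genes with a pattern like that of Gm10451, which was selected on its difference, were sought as a description. With limits chosen after the values were seen, 6 genes of the whole table were at or under 3 reads in every WT library and at 100 or more normalized counts in every R98S library, namely Gm10451, BC064078, Cytip, Dlg3, Lgals7 and Lpgat1. Of these, 1 gene, Gm10451, had 0 reads in every WT library. The mirror pattern, high in WT and at the floor in R98S, was held by 3 genes (Fgf23, S100a4 and Ttc39c). The profiles most like that of Gm10451 were those of Lpgat1, a lysophospholipid acyltransferase (root mean square difference 0.38), and Lgals7, a galectin (0.80). Lpgat1 stood at 3.07, 1.07 and 1.0 normalized counts in WT and 862, 548 and 821 in R98S, and Lgals7 at 0, 0 and 2.0 in WT and 157, 222 and 171 in R98S. Lpgat1 is on chromosome 1 and Lgals7 on chromosome 7, away from Gm10451.

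Levels of different genes can be compared only per length, and normalized counts were therefore divided by the kilobases of merged exons. In R98S, Gm10451 stood at 109 ± 13.6 (SD, n = 3) normalized counts per kilobase and Pvt1 at 1.93 ± 0.645. In WT, Gm10451 was at 0 and Pvt1 led with 1.57 ± 0.652, followed by Mir17hg at 0.983 ± 0.484, Malat1 at 0.582 ± 0.376 and Dleu2 at 0.302 ± 0.135. In R98S these were 0.936 ± 0.948, 0.408 ± 0.221 and 0.140 ± 0.0939, and single clones weighed heavily, with Mir17hg at 0.394 without R98S clone 13 and Dleu2 at 0.0858 without R98S clone 11. Neighbours in this order from Pvt1 down to Dleu2 differed by less than the sum of their SDs in both groups. Over all 6 libraries H19 followed at 0.0678, Neat1 at 0.0470, Kcnq1ot1 at 0.0173 and Meg3 at 0, and these rest on too few reads to be ordered.

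The nearest tested genes on either side of the members gave 16 flanking genes. Of these, 4 were called (3 higher, 1 lower in R98S), against 23.9% of all tested genes, and 7 did not overlap between groups, against 37.3%. Their median log2 fold change was 0.13, beside -0.01 over all tested genes. The edgeR and DESeq2 count tests also called 4, and their shares over all tested genes are not given here. All 4 called genes flank Kcnq1ot1 or Gm10451.

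The tested genes nearest to Kcnq1ot1 were Tssc4, 132 kb from it, and Nap1l4, 217 kb from it. Tssc4 was at 760, 749 and 520 normalized counts in WT and 1139.9, 1064.5 and 1273.0 in R98S (log2 fold change 0.79, SE 0.17, limma adjusted p = 0.02132). Nap1l4, a nucleosome assembly protein gene on the other side, was at 4043.9, 4150.3 and 2624.0 in WT and 5545.8, 5294.0 and 5555.6 in R98S (0.63, adjusted p = 0.04637). WT clone 36 was the lowest library for both. The call of Nap1l4 was lost without R98S clone 11 (adjusted p = 0.1286) or clone 35 (0.1139).

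Beside Gm10451, Hspa2, a heat shock protein gene 37.6 kb before it, stood at 117, 106 and 122 normalized counts in WT and 262, 357 and 159 in R98S (log2 fold change 1.09, SE 0.29, limma adjusted p = 0.04006). Every R98S clone was above every WT clone, but R98S clone 13, the highest for Hspa2, was the lowest for Gm10451. The call of Hspa2 was lost without R98S clone 11 (adjusted p = 0.1232), WT clone 28 (0.1068) or WT clone 29 (0.1122). Plekhg3, 79.6 kb beyond Gm10451, fell from 3044.6 ± 449 to 2164.5 ± 398 (n = 3 each, log2 fold change -0.50, adjusted p = 0.07895), a call lost in several of the alternatives, with an adjusted p of up to 0.245. Within 1 Mb of the start of Gm10451, 14 genes were tested and 3 were called, against 23.9% of all tested genes. The third was Max, the dimerization partner of Myc, named after its values were seen, which rose from 2425.4 ± 385 to 4362.1 ± 526 (0.85, SE 0.15, adjusted p = 0.01061).

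**Figure D3:**
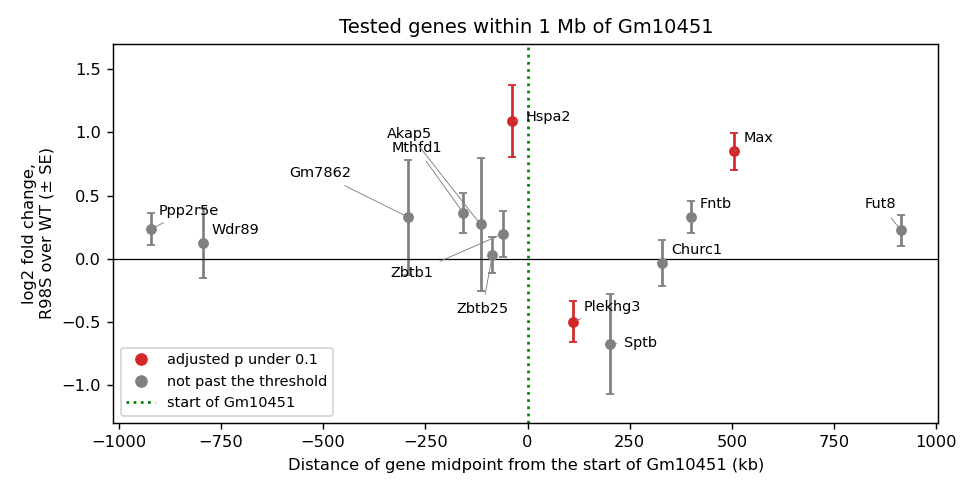
Log2 fold change (R98S over WT, bars ± SE of the limma fit) of the 14 tested genes within 1 Mb of Gm10451, by distance of the gene midpoint from its start in kb. Hspa2 and Max (higher) and Plekhg3 (lower) are past the threshold, in red.

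The nearest tested genes of the other lncRNAs did not pass. Myc, 47.6 kb before Pvt1, was at 10487.0, 9116.2 and 12066.2 normalized counts in WT and 10415.2, 9263.1 and 8153.5 in R98S (log2 fold change -0.18, limma adjusted p = 0.4048), with overlapping groups. Frmd8, which flanks Malat1 and Neat1, had a log2 fold change of 0.13 (adjusted p = 0.4381). Kcnrg, inside Dleu2, had 21.6 ± 4.75 normalized counts in WT and 19.7 ± 4.0 in R98S (adjusted p = 0.8313). The tested genes nearest to Meg3 (Begain, Ppp2r5c), H19 (Mrpl23, Gm7290) and Mir17hg (Tpm3-rs7, Tgds), together with Gsdmc beyond Pvt1 and Rnaseh2b beyond Dleu2, had adjusted p-values between 0.157 and 0.8334. Many of them are distant: in the order named, they lie 473, 875, 34.8, 179, 1726.1, 3065.2, 1397.9 and 610 kb from the lncRNA gene.

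Other widely studied lncRNAs were mostly listed near 0 as well. Of 30 symbols, 27 were listed, 15 of them at 0 in every library, among them Xist and Hotair, and 2 were tested. Mir22hg, the host of miR-22, was at 18.4, 36.5 and 18.0 normalized counts in WT and 12.2, 13.3 and 4.63 in R98S (log2 fold change -1.24, SE 0.50, limma adjusted p = 0.1322). Gm14005 was at 12.7 ± 1.67 in WT and 10.1 ± 5.88 in R98S (n = 3 each, limma adjusted p = 0.5734). No call was made by limma, edgeR or DESeq2, and 1 of the 2, Mir22hg, had an unadjusted p under 0.05, beside 23.9% called and 31.7% with such a p over all tested genes. Trp53cor1, a p53 target also named lincRNA-p21, had 14 reads in WT and 39 in R98S, Firre 16 and 20, and Tug1 8 and 16, all under the filter. Ptgs2os2, also under it, had 4, 5 and 4 reads in WT and 0, 0 and 1 in R98S, and in the fit without an expression filter its log2 fold change was -2.13 (limma adjusted p = 0.0258). It was named after its values were seen. Dleu7, among the 27, is annotated as protein coding.

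Transcripts of genes whose proteins bind or process Neat1 and Malat1 were well expressed, whereas the RNAs themselves were listed near 0. All 21 partner genes were tested and 6 were called, 4 higher and 2 lower in R98S, against 23.9% of all tested genes. Their median log2 fold change was 0.11, beside -0.01 over all tested genes. The edgeR test called 7 and DESeq2 9, but the share of all genes that these tests called is not given here. The counts of 7 and 9 are therefore not read against the limma share. Mettl16, a methyltransferase that binds the Malat1 triple helix, rose from 1421.3, 1444.3 and 1474.1 normalized counts in WT to 2290.2, 2324.0 and 2188.0 in R98S (log2 fold change 0.65, SE 0.10, limma adjusted p = 0.005803). Tardbp, which encodes the RNA-binding protein TDP-43, rose from 9039.3 ± 84.5 to 13568.2 ± 2019.2 (0.57, adjusted p = 0.02273).

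Pspc1, a core paraspeckle protein gene, fell from 2019.4, 2003.1 and 2066.6 normalized counts to 1497.4, 1274.8 and 1241.6 (log2 fold change -0.61, SE 0.11, limma adjusted p = 0.01292). Nudt21, a subunit of the cleavage factor that directs Neat1 processing, fell from 3529.7 ± 53.3 to 2573.6 ± 105 (-0.46, adjusted p = 0.01737). For these 4 genes the WT and R98S clones were fully separated, and each stayed past the threshold in every alternative run. The other called genes, named after their values were seen, were the splicing factor gene Srsf2 (0.40, adjusted p = 0.03497) and Elac2, an RNase Z gene (0.39, adjusted p = 0.05141). The first lost its call without WT clone 29 (adjusted p = 0.1266) and the other in several alternatives, with an adjusted p of up to 0.1419. The partners of Pspc1 in paraspeckles did not pass: Nono had a log2 fold change of 0.12 (adjusted p = 0.4956) and Sfpq 0.34 (0.2495), both with overlapping groups. The called partner genes thus went in both directions.

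Known targets of the hosted miRNAs were all expressed. Of 11 targets of the Mir17hg miRNAs, 3 were called, all lower in R98S (13.1% of all tested genes), with a median log2 fold change of -0.15. Of 10 targets of the Dleu2 miRNAs, 2 were called, both higher (10.7% of all tested genes), with a median of 0.06. Of these 2, Ccnd1 passed the filter only through its R98S values. Of the 21 targets together, limma called 5 (2 higher, 3 lower), close to the 23.9% of all tested genes. The edgeR test gave the same split, whereas DESeq2 called 1 higher and 4 lower. It did not call Ccnd1 (DESeq2 adjusted p = 0.1045) and called Ccnd3, another Dleu2 target, as lower (0.09934). Shares over all tested genes are not given here for edgeR and DESeq2. The list rests on published target relations and not on measured miRNAs.

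E2f2, a transcription factor of the cell cycle, fell from 1272.9, 802 and 1533.2 normalized counts in WT to 508, 561 and 430 in R98S (log2 fold change -1.22, SE 0.24, limma adjusted p = 0.01482). Hbp1, a transcriptional repressor named after its values were seen, fell from 2154.0 ± 165 to 1727.6 ± 114 (-0.32, adjusted p = 0.08582) and lost its call in most alternatives, with an adjusted p of up to 0.3044. Bcl2l11, the proapoptotic Bim gene, had a log2 fold change of -0.15 (adjusted p = 0.6163).

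Among the Dleu2 targets, Wee1, a kinase that delays mitosis, rose from 432, 438 and 489 normalized counts in WT to 812, 611 and 960 in R98S (limma log2 fold change 0.79, SE 0.18, adjusted p = 0.0254). The call held in every alternative run. Ccnd1, the cyclin D1 gene, was low throughout, at 11.3, 5.37 and 6.0 in WT and 36.6, 14.3 and 21.3 in R98S (1.52, SE 0.48, adjusted p = 0.06825). Its call was lost in several alternatives, with an adjusted p of up to 0.1979. Bcl2, the classical target of miR-15a and miR-16, was at 7149.9 ± 2023.6 in WT and 5414.1 ± 623 in R98S (-0.37, adjusted p = 0.2265), with overlapping groups.

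**Figure D4:**
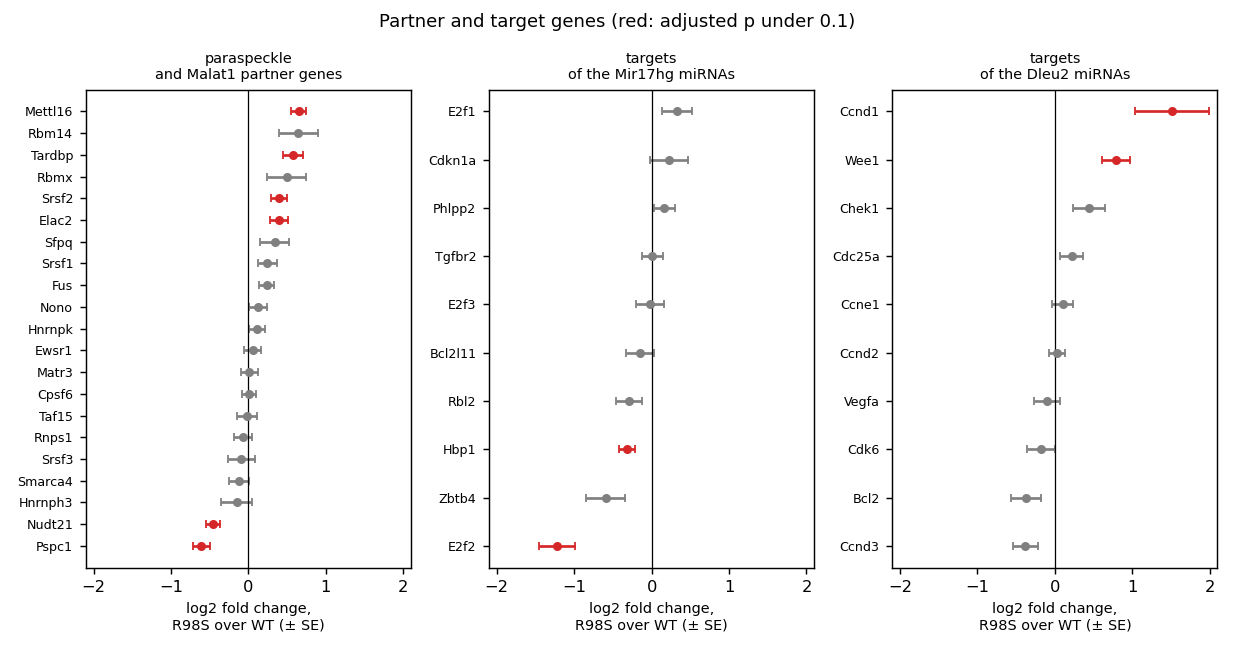
Log2 fold changes (R98S over WT, bars ± SE of the limma fit) of the partner genes of Neat1 and Malat1 and of the reported targets of the Mir17hg and Dleu2 miRNAs, with genes past the threshold in red. Called genes lie on both sides of 0 among the partners, to the left among Mir17hg targets and to the right among Dleu2 targets. Ccnd1, among the latter, passed the expression filter only through its R98S values.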

How the data were processed

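The authors made poly(A)-selected, strand-specific libraries from 6 Ba/F3 clones, removed reads matching ribosomal and transfer RNA with Bowtie2, aligned the rest to mm10 with TopHat and kept alignments of mapping quality 10 or more. Per the labels, HTSeq was among the tools, but its annotation and strand setting are not given in the sources used here, so antisense partners cannot be told apart. The mapping quality filter can lower genes with near-identical copies. Each deposited value is a signal, the read count of a gene over the DESeq2 size factor of each library. All values were whole multiples of 1 step per library (tolerance 1e-06), which gave back the reads.

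Group labels came from the sample descriptions, and the 3 clones per group were used as separate replicates, so p-values measure the spread between clones. Main tests used limma 3.58.1 (R 4.3.3, eBayes with trend) on log2(normalized count + 1), a scale that understates changes of low genes. All genes with a mean of at least 10 in the 6 libraries were fitted, two-sided, with Benjamini-Hochberg adjustment over all of them. Alternatives were edgeR 4.0.16 (quasi-likelihood, TMM) and DESeq2 1.42.0 on the reads, other pseudocounts, filters, scalings and thresholds, and leaving out each clone. The fit was tested on simulated data. Coordinates and lengths are from GENCODE (GRCm38), matched by symbol for 36776 rows. RefSeq gave classes and sequences. The 9 genes, the gene lists and the tests were chosen with earlier results of these data known. Named besides the 9 were the nearest tested gene on each side of each, the 4 called genes of a list with the largest absolute log2 fold change, and the 2 genes of most similar profile, unless the text says that a gene was named after its values were seen. Of 30 other lncRNA symbols, 3 did not match and are not analysed here. Counts of lists include a few genes that are not reported here by name.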

Additional observations from a re-analysis of the deposited data

How the results depend on the processing

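No paired analysis was possible because the WT and R98S clones carry different numbers. Pvt1 was not called in any of the 15 alternatives that tested it, with log2 fold changes as low as 0.05 when WT clone 28 was left out and as high as 0.59 when R98S clone 35 was. No member besides Pvt1 and Gm10451 passed the filter, so the count of 0 called members tests nothing further, and without a filter 7 members were tested and 0 called. Scaling to the same total or upper quartile moved no level per length by over 1.5 times. Leaving out 1 clone moved the following by more, in normalized counts per kilobase: in R98S, Mir17hg from 0.936 to 0.394 (clone 13), Dleu2 from 0.140 to 0.0858 (clone 11), and Neat1 from 0.0596 to 0.0226 and Kcnq1ot1 from 0.0166 to 0.00504 (clone 35). In WT, Kcnq1ot1 went from 0.0181 to 0.0110 and H19 from 0.136 to 0 (clone 36), and Neat1 from 0.0345 to 0 (clone 29). Scaling to the same upper quartile moved the median log2 fold change of all tested genes from -0.01 to 0.09. Without an expression filter, 1 of the other named lncRNAs, Ptgs2os2, was called, lower in R98S. Called flanking genes, 4 in the report, ranged from 1 (without R98S clone 11) to 4 when clones were left out in turn, and were 2 without WT clone 28 or R98S clone 35. With upper quartile scaling 4 were called, all higher in R98S. Called partner genes, 6 in the report, ranged from 4, leaving out WT clone 29, to 11, leaving out R98S clone 13. Called miRNA targets, 5 in the report, were 3 without an expression filter, with upper quartile scaling (2 higher, 1 lower) or at a threshold of 0.05, and ranged from 3 (without WT clone 28, WT clone 29, R98S clone 11 or R98S clone 35) to 8 (without R98S clone 13). The cause was not tested, apart from the stricter threshold. The share of all tested genes called in each alternative is not given here, so these counts stand without it. For genes with few reads per library, counting error limits what could be resolved.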
